A study of Arabidopsis thaliana with 48 samples.

Results

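The genes described here are 8 genes of light and temperature signalling in Arabidopsis thaliana, taken by locus from all 33323 genes counted. They are the photoreceptor gene PHYB (AT2G18790), 4 genes for PHYTOCHROME INTERACTING FACTORs, PIF3 (AT1G09530), PIF4 (AT2G43010), PIF5 (AT3G59060) and PIF7 (AT5G61270), and HY5 (AT5G11260), YUC8 (AT4G28720) and ATHB2 (AT4G16780). The rule takes them by locus and uses no measured value, although earlier results of these data were known when the genes were chosen. All 8 passed the filter on low counts, with 50 to 5175 read pairs in a library, lowest for YUC8 and highest for PHYB.

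The RNA-seq experiment asked how the heat shock factors HSFA2 and HSFA3 shape transcription after heat stress (HS). Seedlings of hsfa2, hsfa3, the hsfa2 hsfa3 double mutant and the wild type Col, all in the Col-0 accession, were grown in 16 h light and 8 h dark. Each line was sampled under 4 treatments, namely a non treated control (NTC) and acclimation (ACC) followed by recovery of 4 h, 28 h or 52 h. In ACC, 4 d-old seedlings were held at 37°C (1 h), returned to 23°C (90 min) and then heated to 44°C (45 min). Each of the 16 groups had 3 biological replicates, 48 libraries in all, numbered 1 to 3. The mutants are single insertion alleles. The labels give neither the hour nor the seedling age at which NTC was harvested. Time of day, age and treatment thus cannot be told apart in any comparison with NTC. The 3 recovery times are 24 h apart and fall at one time of day, but all heated seedlings were 4 d old at ACC. Age and recovery time therefore rise together and cannot be told apart in the steps between these times.

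Phytochrome B is a red light receptor whose active form reverts to the inactive one faster in the warmth, which makes it a temperature sensor. Active phytochrome B binds the PIFs, basic helix-loop-helix (bHLH) transcription factors, and restrains them. When freed, PIF4, PIF5 and PIF7 drive stem elongation in warmth and shade through auxin synthesis genes such as YUC8 and through ATHB2, while HY5, a bZIP factor of the light response, counters them at many of the same promoters.

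The 250 bases before the annotated start of each gene (RefSeq, assembly TAIR10.1) were searched on both strands for the G-box CACGTG, the PIF-binding E-box (PBE-box) CACATG, the heat shock element GAANNTTC or TTCNNGAA and the evening element AAAATATCT. The matches are given in capitals, with 12 bases on each side, since PIFs bind G-boxes and PBE-boxes and HY5 binds G-boxes. PHYB had 2 G-boxes, PIF5 had 1, and YUC8 and HY5 had 1 PBE-box each.
PHYB G-box (chr2:8139598-8139627, plus strand): gggcccagcaacCACGTGtggccactagag
PHYB G-box (chr2:8139633-8139662, plus strand): aaaccattagccCACGTGatcttgggccca
PIF5 G-box (chr3:21830985-21831014, minus strand): ttaactagtcaaCACGTGaaataaatgcga
YUC8 PBE-box (chr4:14192504-14192533, plus strand): aatattcaacgcCACATGggatctcttctt
HY5 PBE-box (chr5:3595194-3595223, minus strand): ctaggcgtgggcCATGTGacagaatgaaag
The G-boxes of PHYB begin at −146 and −111 from the start, that of PIF5 at −165, and the PBE-boxes of YUC8 and HY5 at −53 and −138. None of the 4 motifs lies in this window of PIF3, PIF4, PIF7 or ATHB2, and no heat shock element or evening element in that of any of the 8 genes. Among 27443 promoters of this length, 6.49% hold a G-box, 11.1% a PBE-box, 16.1% a heat shock element and 2.36% an evening element. The window of PIF7, the gene with the largest change after ACC, is given whole.
PIF7 (chr5:24640766-24641015, minus strand): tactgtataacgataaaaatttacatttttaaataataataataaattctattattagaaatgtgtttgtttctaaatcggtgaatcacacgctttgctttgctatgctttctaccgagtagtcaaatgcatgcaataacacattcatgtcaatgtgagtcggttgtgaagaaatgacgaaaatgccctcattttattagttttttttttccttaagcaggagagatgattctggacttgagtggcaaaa

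The libraries held 27561060 to 33861060 read pairs on protein-coding genes, and levels are given as CPM, the counts per 1000000 of these pairs, with libraries scaled by the trimmed mean of M values (TMM). HSFA2 was at 43.5 to 72.4 CPM at 4 h in hsfa2 and hsfa2 hsfa3, against 941 to 1589 CPM in hsfa3 and Col, and HSFA3 was at 156 to 221 CPM in hsfa3 and hsfa2 hsfa3, against 893 to 1694 CPM in hsfa2 and Col. Some reads of each mutated gene thus remained. The seedling labels were checked with 3 shoot, 3 root and 3 seed storage genes. Shoot markers summed to 12125 to 33869 CPM, root markers to 19.1 to 184 CPM and seed markers to 0.338 to 18.6 CPM, and among the 9 genes the seed storage gene SESA3 was at 0, in 16 libraries. In Col, the shoot sum was 15790.0 to 18496 CPM at 4 h and 27003 to 33869 CPM in NTC. The shoot genes did not move together, as RBCS1A and LHCB1.3 fell at 4 h (log2 fold changes −1.06 and −0.88) and LHCB2.1 rose (0.83). The root sum was 21.9 to 61.0 CPM at 4 h and 94.6 to 152 CPM in NTC. The part of these shifts in the results below was not tested, and in whole seedlings fewer cells of a type and less RNA per cell cannot be told apart.

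Per kilobase of exon, PHYB and PIF5 were the most abundant of the 8 transcripts in Col NTC, with 19.0 ± 0.77 and 18.0 ± 8.45 CPM per kb (SD, n = 3). PIF4 (14.6 ± 4.98), HY5 (11.8 ± 1.33), PIF3 (9.68 ± 0.60), PIF7 (6.27 ± 1.23), ATHB2 (5.02 ± 0.43) and YUC8 (1.47 ± 0.42) followed in CPM per kb. Among PHYB, PIF5, PIF4 and HY5 alone, neighbours in this order were within 1 SD of each other, as PIF5 and PIF4 had wide spreads. HY5 and PIF3 lay further apart, and YUC8 was far below ATHB2. PIF7 had a higher mean than PIF3 at 4 h, with 20.7 ± 2.95 and 18.8 ± 1.61 CPM per kb, a difference within one SD.

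At 4 h after ACC in Col, 5 of the 8 genes were higher than in NTC, namely PIF7, PIF3, YUC8, PHYB and HY5, 1 was lower, namely ATHB2, and PIF4 and PIF5 did not pass the test. A gene passed with an adjusted p below 0.05 in edgeR's quasi-likelihood test over 21107 genes, fitted with the 16 groups and no term for the library number. Most of the transcriptome differed at this time, as 35.5% of all genes tested were higher and 36.1% lower, so 6 of 8 is near the background. Only PIF7 also had an absolute log2 fold change above 1, a rule that 16.9% of all genes met as higher. The median log2 fold change of the 8 genes was 0.60, against −0.05 over all genes.

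**Figure D1:**
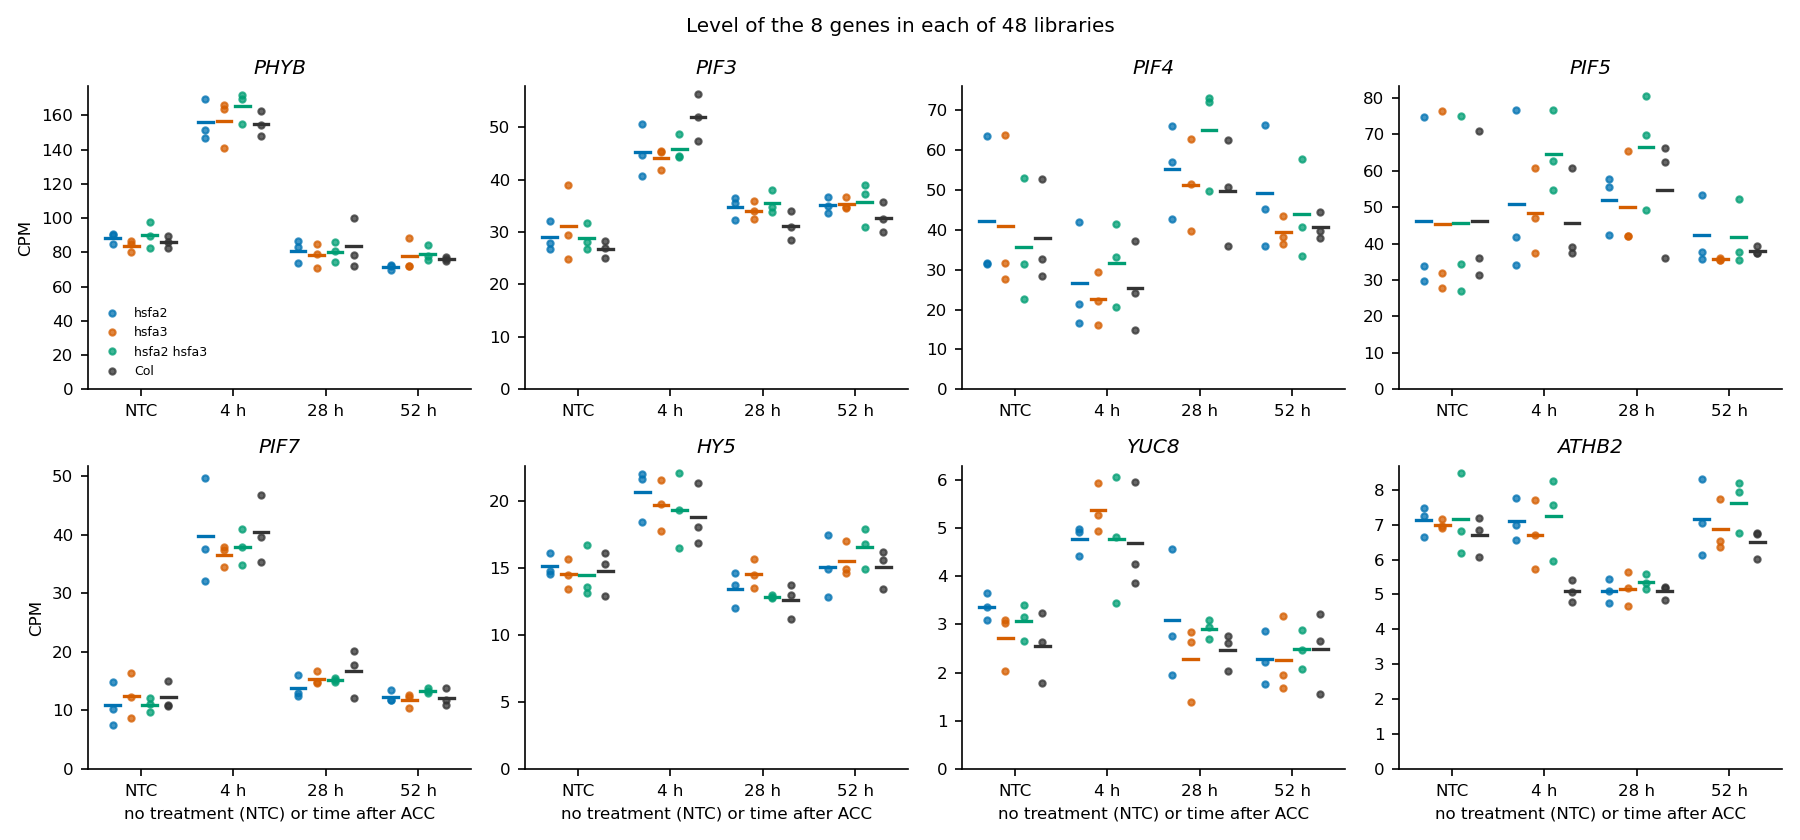
CPM of the 8 genes (y axis, from 0) in the 3 libraries of each group (points) with the mean (bar), by treatment (x axis) and genotype (colour). PHYB and PIF7 stand above all NTC libraries at 4 h in every genotype, and ATHB2 at 4 h is at 4.78 to 5.41 CPM in Col, below all mutant libraries of that time.

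PHYB, the receptor gene, had 154, 163 and 148 CPM at 4 h in Col, against 89.5, 82.5 and 85.8 CPM in NTC. The groups do not overlap, and the log2 fold change was 0.85 ± 0.10 (SE; adjusted p = 8.2e-10). At 28 h the Col libraries were at 99.8, 71.8 and 78.5 CPM, on both sides of NTC, and at 52 h at 77.1, 76.3 and 74.9 CPM, all below it. The log2 fold change at 52 h was −0.18 ± 0.10 and did not pass (adjusted p = 0.22). In the mutants PHYB rose at 4 h by 0.82 ± 0.10 in hsfa2, 0.90 ± 0.10 in hsfa3 and 0.88 ± 0.10 in hsfa2 hsfa3 on the log2 scale. At 52 h in hsfa2 it was lower than in NTC, at 72.7, 69.9 and 71.8 CPM, against 90.1, 84.6 and 90.5 CPM (−0.31 ± 0.10, adjusted p = 0.033). That call was lost when the libraries numbered 2 or 3 were left out (adjusted p = 0.15 and 0.36).

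PIF7, which is needed for shade and daytime warmth responses, had 46.7, 35.3 and 39.6 CPM at 4 h in Col, against 15.0, 10.8 and 10.9 CPM in NTC. Its log2 fold change of 1.73 ± 0.20 (adjusted p = 8.6e-10) was the largest of the 8. At 28 h the Col libraries had 20.2, 17.7 and 12.1 CPM, a difference from NTC that did not pass (0.45 ± 0.19, adjusted p = 0.064), and at 52 h they had 11.7, 13.8 and 11.0 CPM, within the NTC range. In hsfa3 and hsfa2 hsfa3 the 28 h values passed without the libraries numbered 1 (0.57 and 0.54, adjusted p = 0.040 in both), and that of hsfa2 hsfa3 also when each genotype was fitted on its own samples (0.47, adjusted p = 0.011). The rise at 4 h was 1.87 ± 0.20 in hsfa2, 1.55 ± 0.19 in hsfa3 and 1.79 ± 0.20 in hsfa2 hsfa3. PIF7 overlaps the neighbouring gene AT5G61260 in the TAIR10.1 annotation, and the strand setting of the counting is not given in the sources used here, so its counts are uncertain.

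PIF3, which acts in the switch from dark to light growth, had 51.9, 47.4 and 56.3 CPM at 4 h in Col, against 24.9, 28.2 and 27.0 CPM in NTC (0.96 ± 0.11, adjusted p = 1.5e-09). The 28 h libraries (30.9, 28.4 and 33.9 CPM) and the 52 h libraries (30.0, 32.5 and 35.7 CPM) were still all above NTC, but the differences of 0.22 and 0.29 did not pass (adjusted p = 0.12 and 0.068). Without the libraries numbered 2 they did (0.31 and 0.35, adjusted p = 0.042 and 0.0498), as did the 52 h values of hsfa2 hsfa3 (0.49, adjusted p = 0.0090) and hsfa3 (0.37, adjusted p = 0.049). In the mutants the 4 h libraries were all above NTC too, at 40.7 to 50.5 CPM over the 9 of them, with log2 fold changes of 0.65 ± 0.11 in hsfa2, 0.51 ± 0.11 in hsfa3 and 0.67 ± 0.11 in hsfa2 hsfa3. The estimates in all 3 mutants were thus below that of Col. The difference from the change in Col was −0.45 ± 0.16 in hsfa3, −0.31 ± 0.16 in hsfa2 and −0.29 ± 0.16 in hsfa2 hsfa3, and none passed (adjusted p = 0.37, 0.60 and 0.50, unadjusted p = 0.0066, 0.055 and 0.072).

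PIF4, the main PIF of growth in warmth, did not pass against NTC in Col in this fit. It had 37.2, 14.8 and 24.1 CPM at 4 h, against 52.6, 28.4 and 32.7 CPM in NTC, so that each library lay below the NTC library of its number while the groups overlapped (−0.58 ± 0.37, adjusted p = 0.16). In hsfa3 it had 29.4, 16.0 and 22.2 CPM at 4 h, against 63.7, 27.8 and 31.7 CPM in NTC, and fell by 0.86 ± 0.37 on the log2 scale (adjusted p = 0.038), a call that no fit with 2 of the 3 library numbers gave (adjusted p = 0.055 to 0.13). Without the libraries numbered 1, the fall passed in Col (−0.65, adjusted p = 0.046) and in hsfa2 (−0.72, adjusted p = 0.029), and a rise at 28 h passed in hsfa2 hsfa3 (adjusted p = 0.0079). The fit with the library number as a block also gained these 3 calls of PIF4, which are named in the last section. Between 4 h and 28 h, which share a time of day, PIF4 rose in every genotype. It reached 62.5, 50.7 and 36.1 CPM at 28 h in Col, 0.97 ± 0.37 above 4 h (adjusted p = 0.021), and the steps were 1.05 ± 0.37 in hsfa2, 1.19 ± 0.37 in hsfa3 and 1.03 ± 0.37 in hsfa2 hsfa3. The step in Col did not pass without the libraries numbered 2 (0.64, adjusted p = 0.17) or 3 (1.12, adjusted p = 0.095), and in the mutants it was lost without number 3 (adjusted p = 0.14 to 0.18) and, in hsfa2 hsfa3, also without number 2 (adjusted p = 0.051). None of the other 7 genes passed as higher over this interval in Col. Of the clock genes, GI was at 363, 334 and 299 CPM at 4 h in Col and at 103, 90.9 and 82.1 CPM at 28 h. TOC1 overlapped between these times, at 158, 143 and 139 CPM and at 192, 164 and 145 CPM. CCA1, PRR5, PRR7 and PRR9 were lower in every Col library at 28 h than at 4 h, and LHY and RVE8 overlapped. The part of the clock in the step of PIF4 was not tested, and age and recovery time cannot be told apart in it.

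PIF5, the closest relative of PIF4, did not pass against NTC in any genotype at any time in this fit. It had 60.8, 37.4 and 39.1 CPM at 4 h in Col, against 71.0, 31.3 and 36.1 CPM in NTC (−0.01 ± 0.37, adjusted p = 0.98). The double mutant had 76.7, 54.6 and 62.7 CPM at 4 h, against 75.2, 27.0 and 34.5 CPM in its NTC (0.50 ± 0.37, adjusted p = 0.23). Without the libraries numbered 1 this difference passed (0.94, adjusted p = 0.0021), as did PIF5 at 28 h in hsfa2 hsfa3 (1.07, adjusted p = 0.0066) and hsfa3 (0.84, adjusted p = 0.031), while the level in the double mutant against Col at 4 h differed by 0.50 ± 0.37 (adjusted p = 0.57).

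PIF4 and PIF5 varied with the library number. In NTC, the libraries numbered 1 of the 4 genotypes had 52.6 to 63.7 CPM of PIF4, against 22.7 to 31.4 CPM in those numbered 2 and 31.5 to 32.7 CPM in those numbered 3. PIF5 had 71.0 to 76.4 CPM in the libraries numbered 1 and 27.0 to 31.3 CPM in those numbered 2. The library numbered 1 was the highest of its group for PIF4 in 14 of 16 groups and for PIF5 in 12, and that numbered 2 was the lowest in 13 and 15. The median SD within groups was 30.6% of the mean for PIF4 and 25.7% for PIF5, against 6.46% for PHYB and 7.39% for PIF3. PIF4 and PIF5 are known to cycle over the day. In Col NTC, 7 of 8 clock genes were also highest in the library numbered 1, among them the morning gene CCA1 (5.09, 3.46 and 2.35 CPM), PRR5 (28.5, 17.9 and 19.0 CPM) and PRR7 (36.0, 21.2 and 18.9 CPM). The exception in Col was LHY, the closest relative of CCA1, which was highest in that numbered 2 (5.43, 6.15 and 3.82 CPM). In the NTC of each mutant LHY was highest in number 1. It had 6.20, 5.98 and 4.85 CPM in hsfa2 and 7.76, 5.68 and 4.51 CPM in hsfa3. In hsfa2 hsfa3 it had 7.47, 7.12 and 4.56 CPM. Of the evening complex in Col NTC, ELF3 and LUX were highest in number 1 and ELF4 was lowest there (40.3, 43.4 and 55.1 CPM). The share of all genes highest in the library numbered 1 was not counted, so the count of clock genes only describes these genes. The labels do not say what the numbers share, and the part of sampling time in this pattern was not tested.

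**Figure D2:**
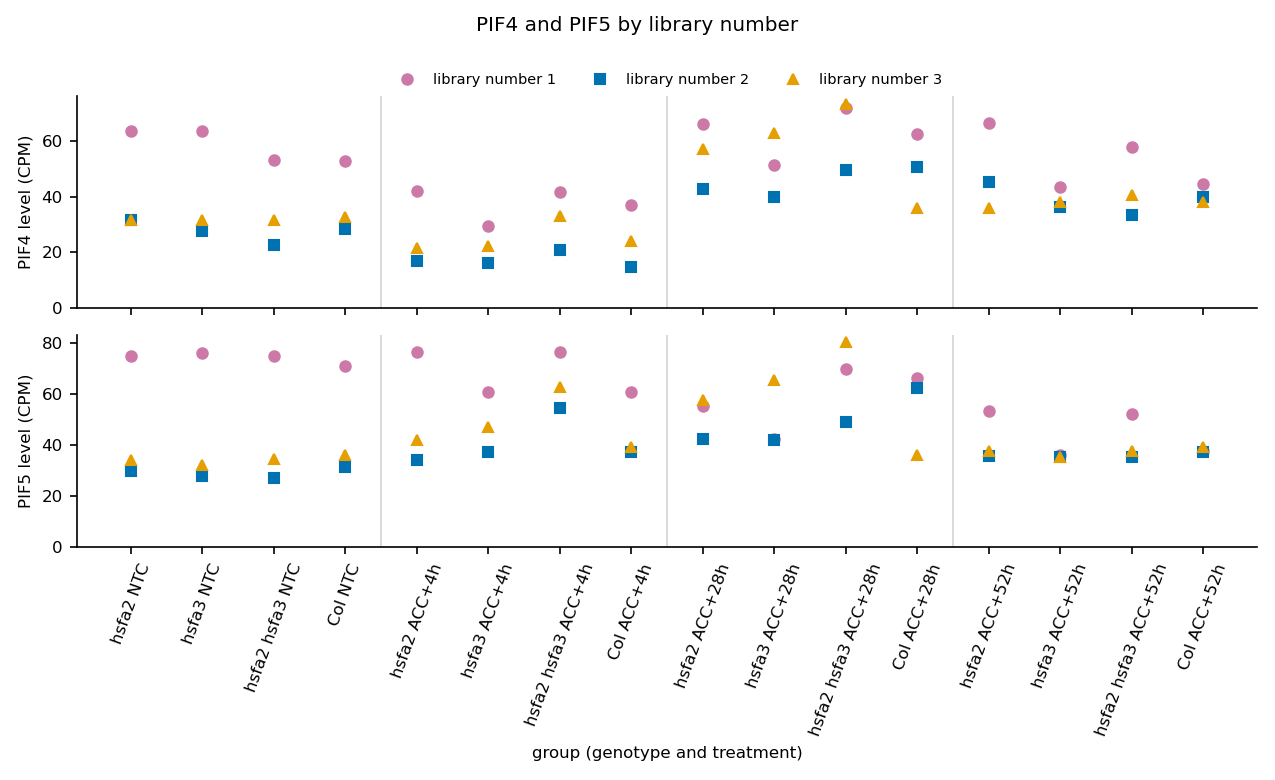
CPM of PIF4 (top) and PIF5 (bottom) in each library (y axis, from 0) of the 16 groups (x axis), with the library number as symbol and colour. In NTC the libraries numbered 1 lie at 52.6 to 63.7 CPM of PIF4 and 71.0 to 76.4 CPM of PIF5, above every other NTC library.

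HY5, the antagonist of the PIFs, had 18.1, 21.4 and 16.9 CPM at 4 h in Col, against 12.9, 15.3 and 16.1 CPM in NTC. The groups do not overlap, but the gap is narrow, and the log2 fold change was 0.34 ± 0.12 (adjusted p = 0.012). The call was lost without the libraries numbered 1 or 2 (adjusted p = 0.12 and 0.061). HY5 rose by 0.45 ± 0.12 in hsfa2, 0.44 ± 0.12 in hsfa3 and 0.41 ± 0.12 in hsfa2 hsfa3, where it did not pass without number 1 or 2 (adjusted p = 0.051 and 0.087). At 28 h it was at 13.7, 11.2 and 13.0 CPM in Col (−0.23 ± 0.12, adjusted p = 0.14) and at 52 h at 13.5, 16.2 and 15.6 CPM, close to NTC.

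YUC8, an auxin synthesis enzyme that PIF4 and PIF7 are known to activate, was the least abundant, with 50 to 196 read pairs in a library. It had 4.24, 5.95 and 3.85 CPM at 4 h in Col, against 1.79, 2.63 and 3.24 CPM in NTC (0.88 ± 0.28, adjusted p = 0.0064). The rise was 0.98 ± 0.28 in hsfa3 and 0.64 ± 0.28 in hsfa2 hsfa3 (adjusted p = 0.0024 and 0.042), and the call in hsfa2 hsfa3 was lost without any 1 of the library numbers (adjusted p = 0.058 to 0.17). In hsfa2 the value of 0.50 ± 0.28 did not pass (adjusted p = 0.11), although its libraries at 4 h (4.91, 4.98 and 4.42 CPM) were all above NTC (3.37, 3.66 and 3.08 CPM). At 28 h and 52 h all Col libraries lay between 1.56 and 3.22 CPM, as did NTC but for its highest library.

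ATHB2, a homeodomain-leucine zipper (HD-ZIP II) gene of the shade response, was the one gene of the 8 that passed as lower than NTC in Col in this fit. It had 5.07, 5.41 and 4.78 CPM at 4 h, against 7.19, 6.06 and 6.85 CPM in NTC (−0.40 ± 0.13, adjusted p = 0.0060), and 5.18, 4.85 and 5.22 CPM at 28 h (−0.40 ± 0.13, adjusted p = 0.013). At 52 h it had 6.01, 6.73 and 6.75 CPM. Both calls were lost without the libraries numbered 3 (adjusted p = 0.098 and 0.095). In the mutants ATHB2 did not pass against NTC at 4 h. It had 7.75, 6.99 and 6.55 CPM in hsfa2, 7.69, 6.72 and 5.73 CPM in hsfa3 and 7.56, 8.26 and 5.95 CPM in hsfa2 hsfa3, so all 9 mutant libraries were above the 3 of Col. At 28 h it had fallen in the mutants too, to 4.67 to 5.64 CPM over the 9 libraries, with log2 fold changes against NTC of −0.48 ± 0.13 in hsfa2, −0.44 ± 0.13 in hsfa3 and −0.42 ± 0.13 in hsfa2 hsfa3. These calls were lost without the libraries numbered 3 in hsfa2 (adjusted p = 0.18), without number 1 or 3 in hsfa2 hsfa3 (adjusted p = 0.16 and 0.11) and without any 1 number in hsfa3 (adjusted p = 0.061 to 0.090).

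The level of ATHB2 at 4 h passed the test against Col in hsfa2 (0.48 ± 0.13, adjusted p = 0.014) and in hsfa2 hsfa3 (0.51 ± 0.13, adjusted p = 0.0052), and not in hsfa3 (0.40 ± 0.13, adjusted p = 0.11). It was the one gene of the 8 with a passing difference in level between a mutant and Col. Across all genes, 5.78% passed in hsfa2, 2.26% in hsfa3 and 9.2% in hsfa2 hsfa3 at 4 h. With 2 of the 3 library numbers the call in hsfa2 was lost each time (adjusted p = 0.10 to 0.24), and that in hsfa2 hsfa3 was lost without number 2 or 3 (adjusted p = 0.14 and 0.064). The mutant's change from NTC minus the change of Col was 0.39 ± 0.18 in hsfa2, 0.34 ± 0.18 in hsfa3 and 0.41 ± 0.18 in hsfa2 hsfa3, and none passed (adjusted p = 0.48, 0.95 and 0.29), so a difference in the response of ATHB2 between the genotypes was not established.

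**Figure D3:**
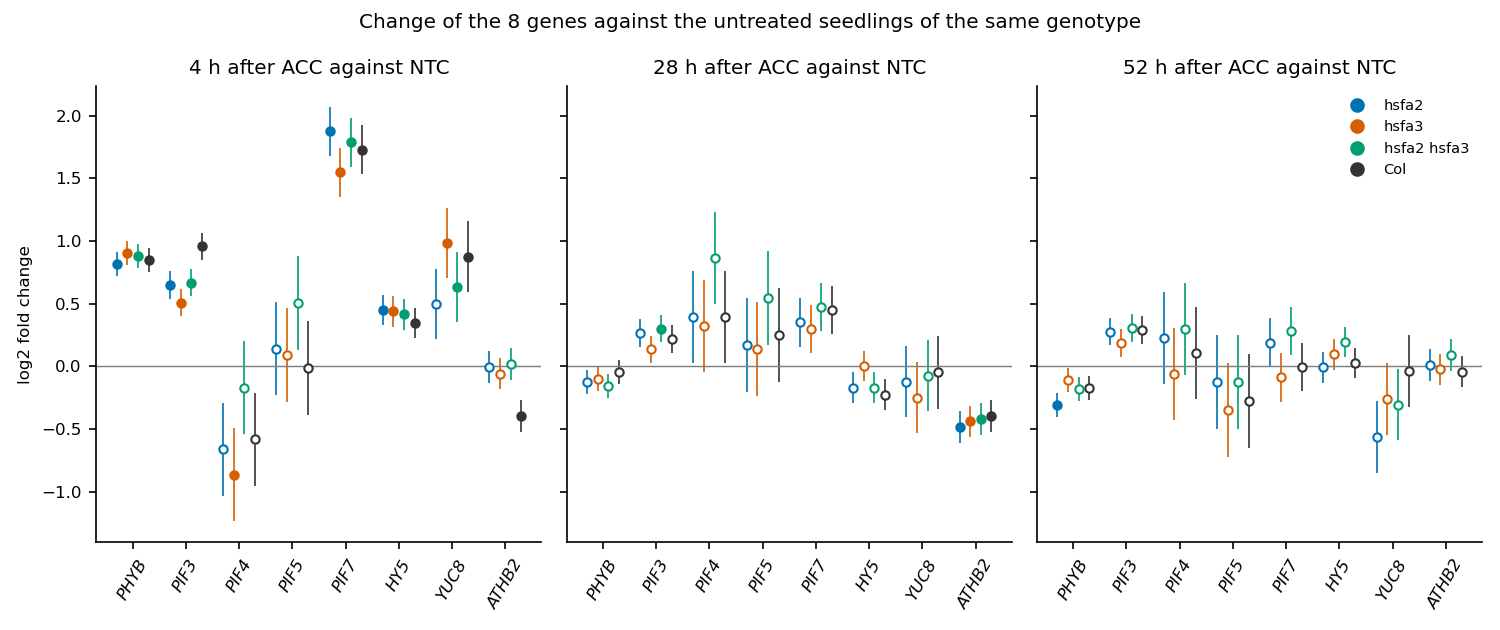
Log2 fold change against NTC of the same genotype (y axis; points with SE bars) for each of the 8 genes (x axis) at the 3 times after ACC (panels), by genotype (colour); filled points have an adjusted p below 0.05. At 4 h the estimates of PIF7 lie at 1.55 to 1.87, and ATHB2 is at −0.40 in Col and near 0 in the mutants.

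At 28 h only ATHB2 of the 8 genes passed against NTC in Col in the fit without the library number, against a background of 21.4% of genes higher and 16.8% lower. At 52 h none did, with 7.75% higher and 7.08% lower in the background, and 1 gene, PIF3, had an unadjusted p below 0.05. DESeq2's Wald test called none of the 8 genes at 52 h either. In edgeR without the libraries numbered 2, PIF3 passed at 28 h and 52 h (adjusted p = 0.042 and 0.0498). Fits with the library number as a block also gained calls at both times, which are named in the last section.

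Without HS, none of 24 differences between a mutant and Col passed, against 0.0426% of genes in hsfa2, 0.0284% in hsfa3 and 0.0521% in hsfa2 hsfa3, and none of the 24 had an unadjusted p below 0.05. None passed at 28 h, where 2.63%, 1.76% and 9.64% of genes did in hsfa2, hsfa3 and hsfa2 hsfa3, or at 52 h, where 0.166%, 0.0569% and 0.611% did. DESeq2's Wald test called 2 of all 96 differences in level, as edgeR did. In the changes from NTC, 15 of 24 values passed at 4 h in the mutants, 14 of them higher, against backgrounds in either direction of 69.8% in hsfa2, 69.9% in hsfa3 and 70.1% in hsfa2 hsfa3. At 28 h 4 of 24 passed, ATHB2 in each mutant and PIF3 in hsfa2 hsfa3 (0.30 ± 0.11, adjusted p = 0.049), against 17.7%, 22.6% and 19.9% of genes. At 52 h 1 of 24 passed, PHYB in hsfa2, against 10.8%, 7.59% and 11.1%. The PIF3 call was lost with DESeq2 (adjusted p = 0.060) and without any 1 of the library numbers (adjusted p = 0.057 to 0.25).

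None of the 72 differences between the change in a mutant and that in Col passed, with estimates from −0.52 to 0.52 and SE from 0.13 to 0.53. DESeq2's Wald test called none either, and 3 of the 72 had an unadjusted p below 0.05 in edgeR, PIF3 in hsfa3 and ATHB2 in hsfa2 and hsfa2 hsfa3, all at 4 h. Over all genes, this test passed for 2.61%, 0.455% and 4.38% at 4 h in hsfa2, hsfa3 and hsfa2 hsfa3, for 0.156%, 0% and 1.23% at 28 h, and for 0.0142%, 0% and 0.118% at 52 h. The errors leave room for differences of some size in PIF4 and PIF5, whose SE was 0.50 to 0.53, and less in PHYB, whose SE was 0.13 to 0.14.

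Between 4 h and 28 h most of the 8 genes moved in each genotype. In Col PIF4 rose and PHYB (−0.89 ± 0.10), PIF7 (−1.28 ± 0.19), PIF3 (−0.74 ± 0.11), YUC8 (−0.92 ± 0.28) and HY5 (−0.57 ± 0.12) fell, against 35.4% of all genes higher and 32.9% lower. In each mutant PIF4 rose and 6 genes fell, as ATHB2 fell as well (−0.48 ± 0.13 in hsfa2, −0.38 ± 0.13 in hsfa3, −0.44 ± 0.13 in hsfa2 hsfa3), against 68.4%, 66.8% and 66.6% of genes called in either direction. Leaving out 1 library number ended the fall of YUC8 in Col (number 2, adjusted p = 0.077), in hsfa2 (1 or 3, adjusted p = 0.27 and 0.21) and in hsfa2 hsfa3 (1 or 3, adjusted p = 0.16 and 0.060). It ended that of PIF3 in each mutant (number 3, adjusted p = 0.089 to 0.18), and that of ATHB2 in hsfa3 (number 1, adjusted p = 0.17) and in hsfa2 hsfa3 (number 2, adjusted p = 0.073). From 28 h to 52 h ATHB2 rose in hsfa2 and hsfa2 hsfa3 (0.49 ± 0.13 and 0.51 ± 0.13, adjusted p = 0.024 and 0.020). The call in hsfa2 was lost without number 1 or 3 (adjusted p = 0.23 and 0.40) and that in hsfa2 hsfa3 without any 1 number (adjusted p = 0.051 to 0.53). ATHB2 did not pass in hsfa3 (0.41 ± 0.13, adjusted p = 0.057) or Col (0.35 ± 0.13, adjusted p = 0.053), but with DESeq2's Wald test it passed in both (adjusted p = 0.034 in hsfa3 and 0.036 in Col). In this step 2.73%, 3.57%, 2.62% and 15.2% of all genes passed in hsfa2, hsfa3, hsfa2 hsfa3 and Col.

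Over the 16 group means of log2 CPM, PHYB ran closest to YUC8 (r = 0.95) and PIF7 (r = 0.94) among the 8 genes, and PIF4 ran opposite to HY5 (r = −0.87) and PHYB (r = −0.85). The groups share the large step at 4 h, which most genes follow. Over all genes, the patterns most like each were those of ATG18H, AT1G68410 and ERMO2 for PHYB (r = 0.996 each), PMAT1, AT1G05730 and AT5G11760 for PIF7 (r = 0.995 each), AT1G72740, RCY1 and AT1G50570 for PIF3 (r = 0.973 to 0.976) and AT1G07300, AT1G22930 and AT5G14710 for HY5 (r = 0.963 to 0.972). YUC8 was closest to ASP2, AGT2 and DGK1 (r = 0.957 to 0.964) and PIF4 to AT2G37500, NUDX23 and PMT6 (r = 0.959 to 0.966). The values were lower for ATHB2 with AFB2, AT2G32970 and D6PKL1 (r = 0.899 to 0.910), AFB2 being an auxin receptor gene, and for PIF5, closest to CDF3, AT5G64650 and CDF1 (r = 0.863 to 0.904), of which CDF1 and CDF3 encode DOF factors that cycle over the day.

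Of 66 other genes of the pathway, grouped by role, 65 were tested, F3H not passing the filter. In Col at 4 h, 17 were higher and 28 lower than in NTC, beside 35.5% and 36.1% of all genes tested. The counts were 8 and 20 at 28 h (21.4% and 16.8% of all genes) and 2 and 10 at 52 h (7.75% and 7.08%). No list was tested against other genes, so the counts only describe the listed genes. Over all genes the median log2 fold change was −0.05, 0.02 and 0.02 at these times. Among 7 other photoreceptors, 4 were higher at 4 h and 1 lower, led by PHYD, the nearest relative of PHYB, at 78.5 ± 12.3 CPM at 4 h and 15.0 ± 2.43 CPM in NTC (log2 fold change 2.39), and the blue light receptor gene CRY2 (0.72). PHYD was still higher at 28 h (0.70, adjusted p = 0.0055). CRY1, the other cryptochrome gene, was lower at 4 h and 28 h (−0.34 at both), and the UV-B receptor gene UVR8 was higher at 4 h (0.21) and 52 h (0.29).

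Among 10 other PIF and PIF-antagonist bHLH genes, none was higher and 5 were lower at 4 h, beside 35.5% and 36.1% of all genes. UNE10, also known as PIF8, had 4.69 ± 1.42 CPM at 4 h and 36.0 ± 1.95 CPM in NTC (−2.94), and PRE1, a growth-promoting helix-loop-helix gene, had 0.50 ± 0.25 and 3.42 ± 0.78 CPM (−2.75). UNE10 was still lower at 28 h (−1.18) and 52 h (−0.97), as was PIF1 (−0.31 and −0.35), and PRE1 was lower at 28 h (−0.73). PIF1, which restrains germination in the dark, was thus lower after ACC while PIF3 and PIF7 were higher at 4 h. PIF1 overlaps a neighbouring gene and is uncertain.

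The regulators of HY5 divided as well. Of 9 genes of the COP1/SPA ubiquitin ligase and of partners of HY5, 4 were higher and 2 lower at 4 h, beside 35.5% and 36.1% of all genes. BBX22, a B-box partner of HY5, had 215 ± 27.5 CPM at 4 h and 31.1 ± 2.01 CPM in NTC (2.79), and SPA3, a COP1 partner that overlaps a neighbouring gene, had 8.13 ± 0.72 and 54.1 ± 3.88 CPM (−2.73). BBX22 was still higher (0.79) and SPA3 lower (−1.05) at 28 h. HYH, the homologue of HY5, was lower at 28 h (−0.53) and 52 h (−0.74), and SPA3 was lower at 52 h as well (−0.39). Of 5 HY5 targets tested, ELIP1 (2.31) and MYB12 (0.57) were higher at 4 h and CHS (−1.43) and FLS1 (−1.12) lower. ELIP1 and MYB12 act in light protection and flavonol synthesis, and CHS and FLS1 are flavonoid enzymes. ELIP2 was lower at 28 h (−1.34) and 52 h (−2.32), and ELIP1 at 52 h (−2.33).

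Downstream, the listed auxin genes that passed at 4 h were lower, YUC8 apart. In Col 8 of 9 auxin response genes that act downstream of PIFs were lower at 4 h (median −2.44) and 7 at 28 h (median −1.04), beside 36.1% and 16.8% of all genes, and none passed at 52 h. SAUR22 (−3.51) and SAUR19 (−3.45), of a family that promotes cell expansion, had the largest falls, with levels at 4 h near the floor of 3 counts, and were still lower at 28 h (−1.95 and −1.93). The SAUR genes of this list are near-identical neighbours whose reads can be split between them, so they are uncertain. Of 10 other auxin synthesis genes, 5 were lower and none higher at 4 h (median −0.94), led by CYP79B2 (−2.51) and YUC3 (−1.78), while YUC8 was higher. YUC5 (−1.47) and YUC3 (−1.44) were lower at 28 h, and YUC3 (−1.07) at 52 h. All 4 other HD-ZIP II genes were lower at 4 h (median −1.25), as ATHB2 was, with HAT1 at −1.46 and HAT3 at −1.44. HAT1 (−0.65) and HAT2 (−0.48) were still lower at 28 h.

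**Figure D4:**
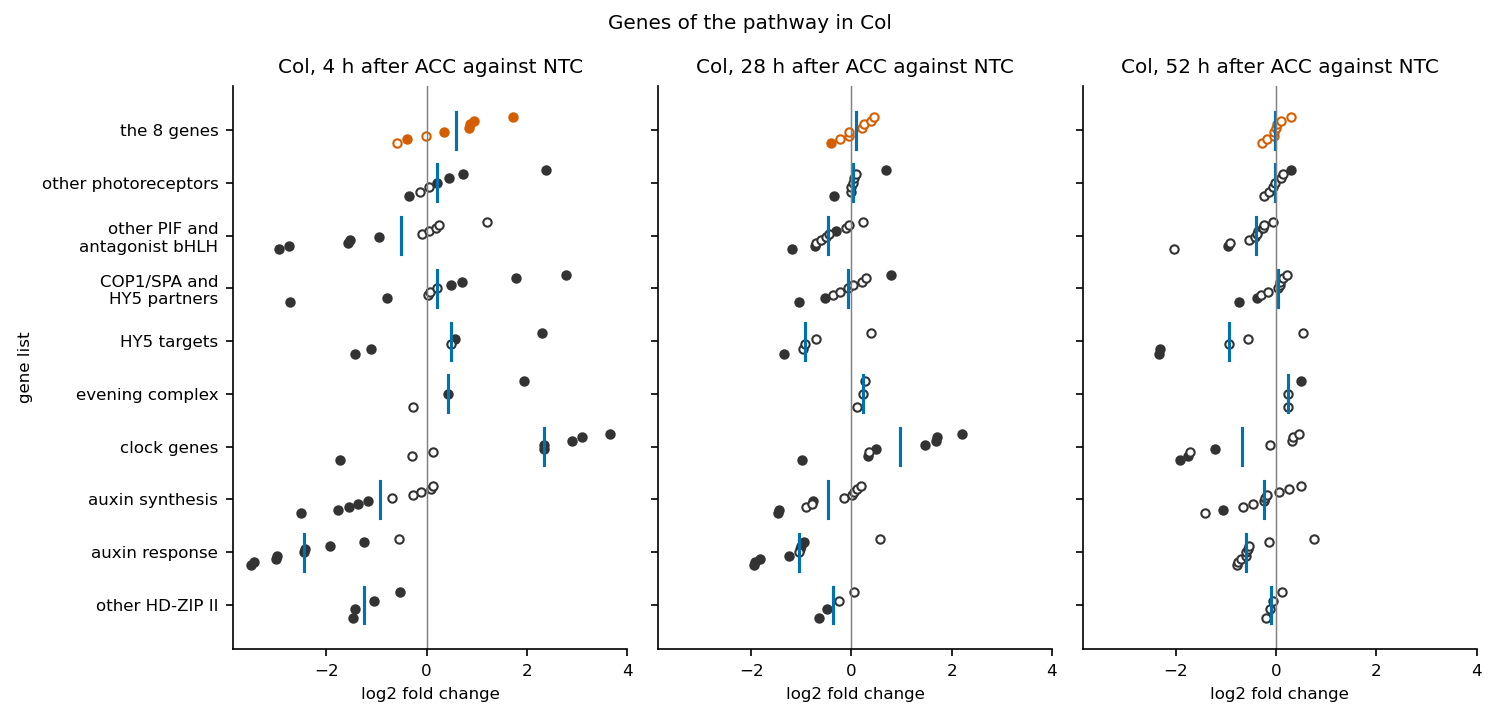
Log2 fold change against NTC in Col (x axis) of the 8 genes and of 9 lists of other genes of the pathway (y axis) at the 3 times after ACC (panels); each point is a gene, filled where the adjusted p is below 0.05, and the bar is the median of the list. At 4 h the median of the auxin response genes is −2.44 and that of the clock genes 2.34.

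Clock genes, which set the daily rhythm of PIF4 and PIF5, had calls against NTC at all 3 times. CCA1 had 32.3, 30.4 and 30.8 CPM at 4 h in Col, against 5.09, 3.46 and 2.35 CPM in NTC (3.10), and PRR9 (3.65), PRR5 (2.90), PRR7 (2.34) and GI (2.34) rose with it, while RVE8 fell (−1.73) and LHY (−0.29) and TOC1 (0.14) did not pass. At 28 h CCA1 (2.22), PRR7 (1.70), PRR9 (1.70), PRR5 (1.47), GI (0.49) and TOC1 (0.32) were higher and RVE8 (−0.98) lower, and LHY (0.35) did not pass. At 52 h LHY (−1.76), RVE8 (−1.93) and CCA1 (−1.23) were lower. In the evening complex, which represses PIF4 at dusk, LUX (1.94) and ELF3 (0.42) were higher at 4 h, and both overlap neighbouring genes. ELF4 was higher at 52 h (0.49). The 28 h library of Col numbered 3 had less CCA1 (7.77 CPM) than the others (21.3 and 21.6 CPM), and was also the lowest of its group in PIF4, PIF5 and PIF7.

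In the mutants at 4 h, 15 of the other genes were higher and 30 lower in hsfa2, 13 and 30 in hsfa3, and 17 and 30 in hsfa2 hsfa3, of 65, near the 69.8%, 69.9% and 70.1% of all genes called in either direction. The change from NTC differed from that of Col for 2 genes, both in hsfa2 hsfa3 at 4 h. PIF1 had 16.3 ± 0.92 CPM in hsfa2 hsfa3 and 11.8 ± 0.96 CPM in Col at 4 h, and MYB12 had 3.01 ± 0.53 and 6.49 ± 1.16 CPM. In level against Col, 2 of the 65 were higher (CYP79B2 and PIF1) and 4 lower (BBX22, CCA1, ELF3 and MYB12) in hsfa2 hsfa3 at 4 h, beside 9.2% of all genes, and 4 were higher at 28 h, beside 9.64%. In hsfa3 1 gene, SPA3, was higher at 28 h (0.43, adjusted p = 0.035), and none passed in hsfa2, where 5.78% of all genes did at 4 h. At 28 h SPA3 (0.45, adjusted p = 0.0079), SAUR19, SAUR22 and SAUR23 were higher in hsfa2 hsfa3 than in Col (SAUR genes 1.81, 1.59 and 1.58, adjusted p = 0.0098, 0.012 and 0.0037), with 2.16 ± 0.80 and 0.61 ± 0.16 CPM of SAUR19. The corresponding differences in the change from NTC did not pass.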

How the data were processed

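RNA from seedlings of 4 genotypes and 4 treatments was sequenced by the study in 48 libraries as paired reads, which the authors aligned to TAIR10 with STAR 2.5.1a. For each library the authors deposited raw counts, in which STAR had assigned read pairs to genes, not normalized. The strand column kept and the annotation release are not given in the sources used here, so overlapping genes are called uncertain. Rows naming no gene held 7.20 to 9.38% of a library and were left out.

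Genes were named through the TAIR10.1 table, which matched 32835 of 33323, and 26712 protein-coding genes were kept. In edgeR 4.0.16 (R 4.3.3), filterByExpr over 16 groups left 21107 genes, libraries were scaled by TMM, and the quasi-likelihood fit, 1 coefficient for each group, had 32 residual degrees of freedom. Benjamini-Hochberg adjustment of p-values was done separately in each of 41 contrasts, namely 12 changes from NTC, 9 differences between the change in a mutant and in Col, 12 levels against Col and 8 steps between times. Every adjusted p comes from these fits unless DESeq2 1.42.0 is named, and limma 3.58.1 is a part of edgeR. The SE was derived from the F statistic, as the size of the log2 fold change over the root of F. Log2 CPM values have a prior count of 2. A floor of 3 counts was 0.0834 to 0.115 CPM and covers counting error only. Promoter sequences and coordinates are those of TAIR10.1 throughout, and none was taken from the build of the counts. The tests were checked on simulated counts that had no effect of the library number, so this check does not cover the pattern seen with these numbers.

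The 8 genes and the lists were chosen with earlier results of these data known. Named genes were the 8, the mutated and clock genes, up to 2 genes per list and time with the largest passing change in Col, up to 2 per mutant with the largest passing difference from the change in Col, and the 3 most like each of the 8. The names FLS1, HAT2, SAUR23, the genes that passed in level against Col, and the evening complex and marker genes beyond this rule, and the clock values by library, were chosen after their values were seen. Alternatives were DESeq2's size factors in edgeR, DESeq2's Wald test, no filter, a filter of at least 1 CPM in 3 libraries, all genes, the library number as a block, each library number left out, each genotype on its own 12 samples, an adjusted p below 0.01, and an absolute log2 fold change above 1.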

Additional observations from a re-analysis of the deposited data

Results flagged for a closer look

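The change from NTC at 4 h differed between a mutant and Col, by the test of that difference, for 2 genes of the pathway and for the mutated genes themselves. PIF1, a PIF that overlaps a neighbouring gene, fell less in hsfa2 hsfa3 than in Col, with a difference of 0.55 ± 0.14 on the log2 scale (adjusted p = 0.012). Its change was −0.98 in hsfa2 hsfa3 and −1.53 in Col. MYB12, a flavonol regulator, had a difference of −1.18 ± 0.35 (adjusted p = 0.044), with a change of −0.61 in hsfa2 hsfa3 and 0.57 in Col. HSFA2 had a difference of −3.66 in hsfa2 (adjusted p = 0.020), and HSFA3 of −1.29 in hsfa3 (adjusted p = 0.013) and −1.10 in hsfa2 hsfa3 (adjusted p = 0.0085). In hsfa2 hsfa3, where HSFA2 is mutated as well, HSFA2 did not pass this test. Dixon's test for an outlying sample was not run, as groups of 3 libraries are too small for it.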

How the results depend on the processing

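No call among the 8 genes turned its direction under any alternative run. Of 3704 values over all alternatives, 3556 kept their side of the threshold, 118 lost the call and 30 gained it, and 171 that passed in neither fit changed sign. The cause of these changes was not tested, except where the alternative is itself a stricter threshold. With an absolute log2 fold change above 1 as well, 1 of 8 genes passed at 4 h and 0 at 28 h in Col, 3 of 24 values passed at 4 h and 0 at either later time in the mutants, 0 of 96 levels differed from Col, and 1 of 8 steps from 4 h to 28 h in Col and 9 of 48 steps in the mutants passed. With an adjusted p below 0.01, 0 genes passed at 28 h in Col, 1 and 0 values at 28 h and 52 h in the mutants, and 1 level against Col. The step from 28 h to 52 h in Col had 1 call, ATHB2, against 0, with DESeq2's size factors, DESeq2's Wald test, no filter, the stricter filter, all genes or the block. Leaving out 1 library number at a time gave 5 to 6 calls at 4 h, 0 to 2 at 28 h and 0 to 1 at 52 h in Col, 12 to 14, 0 to 6 and 0 to 2 in the mutants, 0 to 0 for differences from the change in Col, 0 to 1 for levels against Col, 4 to 6 and 0 to 0 for the steps in Col, and 13 to 20 for the steps in the mutants. The calls over all genes were not counted in these runs, so their counts only describe the 8 genes.

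The labels share the numbers 1 to 3 across groups but do not say what a number marks. Of 96 same-numbered pairs of libraries in the groups compared, 72 deviated together with r above 0.1 (range −0.38 to 0.61), and 42 of 48 libraries correlated best with libraries of their own number, which is a hint from the data and not the design. With the number as a replicate block, 10 of 328 values gained the call and none lost it. In Col these were PIF4 at 4 h (−0.61, adjusted p = 0.0091), PIF7 at 28 h (0.45, adjusted p = 0.024), PIF3 at 52 h (0.29, adjusted p = 0.046) and the step of ATHB2 from 28 h to 52 h (adjusted p = 0.028), so that 7, 2 and 1 genes passed at the 3 times and 1 in that step. Over all 21107 genes tested, the block called 16004, 9916 and 5298 in Col at the 3 times and 4820 in that step. In hsfa2 hsfa3 they were PIF5 at 4 h (0.59, adjusted p = 0.039), PIF4 (0.93, adjusted p = 0.00084) and PIF7 (0.48, adjusted p = 0.026) at 28 h and PIF3 at 52 h (0.31, adjusted p = 0.037). The others were PIF4 at 4 h in hsfa2 (−0.68, adjusted p = 0.0037) and the step of ATHB2 from 28 h to 52 h in hsfa3 (adjusted p = 0.029). In the mutants 17, 6 and 2 of 24 values then passed at the 3 times. Over all genes, the block called 15711, 5558 and 4076 in hsfa2 and 15685, 7045 and 3841 in hsfa3. In hsfa2 hsfa3 it called 15697, 6455 and 4613. YUC8 had as few as 50 read pairs in a library, the lowest depth of the 8 genes.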
